A study of Mus musculus with 32 samples.

Results

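A set of genes known from neutrophils and from the acute-phase response (10 genes, *Lcn2*, *S100a8*, *S100a9*, *Retnlg*, *Ngp*, *Camp*, *Il1r2*, *Saa3*, *Serpina3n* and *Clu*) were followed through 6 comparisons of mouse heart and skeletal muscle lacking RIP140, the transcriptional corepressor encoded by *Nrip1*. The group was chosen on measured values, because *Lcn2* and *S100a9* were strongly changed in these data, so the changes of these 2 genes are given as a description with no test. Of the 10 genes, 7 were listed as differentially expressed in at least 1 comparison, and *Ngp*, *Camp* and *Il1r2* were listed in none. The 6 lists together held 6212 distinct gene symbols.

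RNA-Seq covered 32 samples in 10 groups, all carrying floxed *Nrip1* (Nrip1 f/f), and each control group was Cre-negative. In str*Nrip1*-/- mice, the promoter of muscle creatine kinase (MCK), which is active in heart and in skeletal muscle, drove Cre, and heart, gastrocnemius and soleus were each sampled from 3 str*Nrip1*-/- and 3 littermate control mice; the heart samples were ventricles of 8-week-old males. In cs*Nrip1*-/- mice, Cre was under *Nkx2.5* control, which was meant to restrict deletion to the heart. Male mice of that line had sham surgery (4 control and 3 cs*Nrip1*-/- hearts) or transverse aortic constriction with a small apical myocardial infarction, TAC/MI (3 control and 4 cs*Nrip1*-/- hearts), at 8 weeks of age, and hearts were taken 4 weeks later. TAC/MI models heart failure. The infarcted apex was cut away before RNA was made, and the matching region was cut from sham hearts, so the values describe the remaining myocardium. *Nrip1* itself was listed higher in the hearts labelled cs*Nrip1*-/-, by 1.41 on the log2 scale after sham surgery and 0.86 after TAC/MI, and it was not listed in the other comparisons. These gene totals can include reads from transcripts outside the deleted exon and are no check of the deletion, so these groups are called by their labels throughout. The study assessed RIP140 protein in hearts of this line by immunoblot, which was not examined here.

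The values are log2 fold changes and false discovery rates (FDR) of the listed genes, which had an FDR below 0.05 and a change of at least 1.2-fold. Fold changes had been shrunken toward 0 before deposit. No level, value per mouse, standard error or read depth was in the files used here, so the FDR is the only measure of the spread between mice, and the labelled tissues could not be checked against their defining markers. Whether an unlisted gene missed a criterion or never entered the test is not recorded. The knockout comparisons after sham surgery and after TAC/MI each share control hearts with the comparison of TAC/MI against sham, so their values are set side by side and are not independent.

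Neutrophils are short-lived white cells that carry antimicrobial proteins in granules and move into injured tissue. They hold much of their cytosol's protein as the S100A8/S100A9 dimer, which acts as an alarmin through Toll-like receptor 4 when released. The acute-phase response is a change in secreted proteins after injury, driven largely by interleukin-1 and interleukin-6 through NF-kB, STAT3 and C/EBP factors, and also helped by glucocorticoids. Several of its genes, among them *Lcn2*, *Saa3*, *Serpina3n* and *Clu*, are known to be made by stressed tissue cells as well as by liver, and *Lcn2* belongs to both worlds, because its product also fills neutrophil granules.

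The alarmin genes lie close together, and the other genes are far apart or on separate chromosomes. On GRCm38 with GENCODE vM21 annotation, *S100a8* (chr3:90668978-90670035, plus strand) and *S100a9* (chr3:90692632-90695721, minus strand) are 22.6 kb apart. *Lcn2* is at chr2:32384633-32388252 (minus), *Saa3* at chr7:46711998-46715700 (minus), *Serpina3n* at chr12:104406729-104414329 (plus), *Retnlg* at chr16:48872621-48874496 (plus) and *Clu* at chr14:65968483-65981547 (plus). *Camp* (chr9:109847379-109849617, minus) and *Ngp* (chr9:110419747-110423012, plus), which share a chromosome, are 570.1 kb apart, and *Il1r2* is at chr1:40074079-40125231 (plus). All 10 are protein-coding genes. The annotated transcripts of *Serpina3n* are 79.3% identical to *Serpina3c*, those of *Retnlg* 82.8% identical to *Retnla*, and those of *Saa3* 81.2% identical to *Saa1* over the best-aligned stretch, so reads of these genes could in part be shared with their relatives. *Serpina3c* and *Saa1* were not listed in any comparison. *Serpina3m*, another *Serpina3* gene, was listed higher after TAC/MI in control hearts (1.87, FDR 6.08e-04).

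The bases upstream of 3 of these genes are shown because the genes stand for the 3 patterns described here, an alarmin (*S100a9*), a gene upregulated by surgery (*Saa3*) and a gene moving with both surgery and genotype (*Serpina3n*). Each is a stretch of at most 250 bases before the RefSeq start, free of annotated exons, in the gene's own direction from 5′ to 3′, from RefSeq on GRCm38.p6. Capitals mark matches, on either strand, to TTGC and AA separated by 2 bases (a C/EBP motif, in *S100a9* and *Saa3*), to GGGA and CC separated by 4 bases (an NF-kB motif, in *Serpina3n*) or to ACA and TGT separated by 3 bases (a glucocorticoid receptor motif, in *Serpina3n*).
S100a9, chr3:90695722-90695971, minus strand: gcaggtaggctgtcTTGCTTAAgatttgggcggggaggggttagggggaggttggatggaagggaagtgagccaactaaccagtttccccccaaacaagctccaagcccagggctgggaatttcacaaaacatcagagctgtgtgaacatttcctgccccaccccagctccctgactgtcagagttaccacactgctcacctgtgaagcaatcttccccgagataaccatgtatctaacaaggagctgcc
Saa3, chr7:46715701-46715926, minus strand: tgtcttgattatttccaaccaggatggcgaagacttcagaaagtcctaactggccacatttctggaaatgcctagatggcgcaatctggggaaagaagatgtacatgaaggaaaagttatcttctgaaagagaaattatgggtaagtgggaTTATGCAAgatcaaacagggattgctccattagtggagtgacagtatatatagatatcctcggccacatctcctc
Serpina3n, chr12:104406458-104406707, plus strand: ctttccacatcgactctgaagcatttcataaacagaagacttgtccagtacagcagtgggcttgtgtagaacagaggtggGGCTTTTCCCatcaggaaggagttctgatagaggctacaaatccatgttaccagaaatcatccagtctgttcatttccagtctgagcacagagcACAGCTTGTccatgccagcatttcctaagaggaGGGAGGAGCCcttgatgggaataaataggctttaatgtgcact

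The C/EBP letters occurred in the 250-base windows of 5 of the 9 genes with a RefSeq window (*Lcn2*, *S100a9*, *Retnlg*, *Ngp* and *Saa3*), and in 9.56% of 32851 windows in all. *Lcn2* and *Serpina3n* were the 2 of 9 holding the glucocorticoid receptor letters, which occurred in 5.84% of all windows. The NF-kB letters were in the window of *Serpina3n* only (17.6% of all windows), and the STAT letters, TTC and GAA separated by 3 bases, were in that of *Il1r2* only (7.02%). *S100a8* and *Camp* held none of the 4, and *Clu* had no window in the table. These are matches of letters and say nothing of binding.

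Across the 6 comparisons, 26 of 60 possible entries were listed, 20 higher and 6 lower. In str*Nrip1*-/- hearts, 2 of the 10 genes were listed, both higher. In gastrocnemius 4 were listed (3 higher, 1 lower) and in soleus 6 (5 higher, 1 lower). In hearts labelled cs*Nrip1*-/-, 6 were listed after sham surgery, all higher, and 4 after TAC/MI, all lower. TAC/MI itself, in control hearts, gave 4 listed genes, all higher. For comparison, of 21924 annotated protein-coding genes the lists held 1.31% in str*Nrip1*-/- heart, 8.73% in gastrocnemius, 2.6% in soleus, 9.23% after sham surgery, 7.89% after TAC/MI and 15.1% for TAC/MI against sham. Of all listed genes, in the same order, 65.3%, 53.1%, 59.9%, 53.3%, 46.2% and 53.6% were higher. Because the genes were picked with these changes known, nothing is read from their shares against this background.

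**Figure D1:**
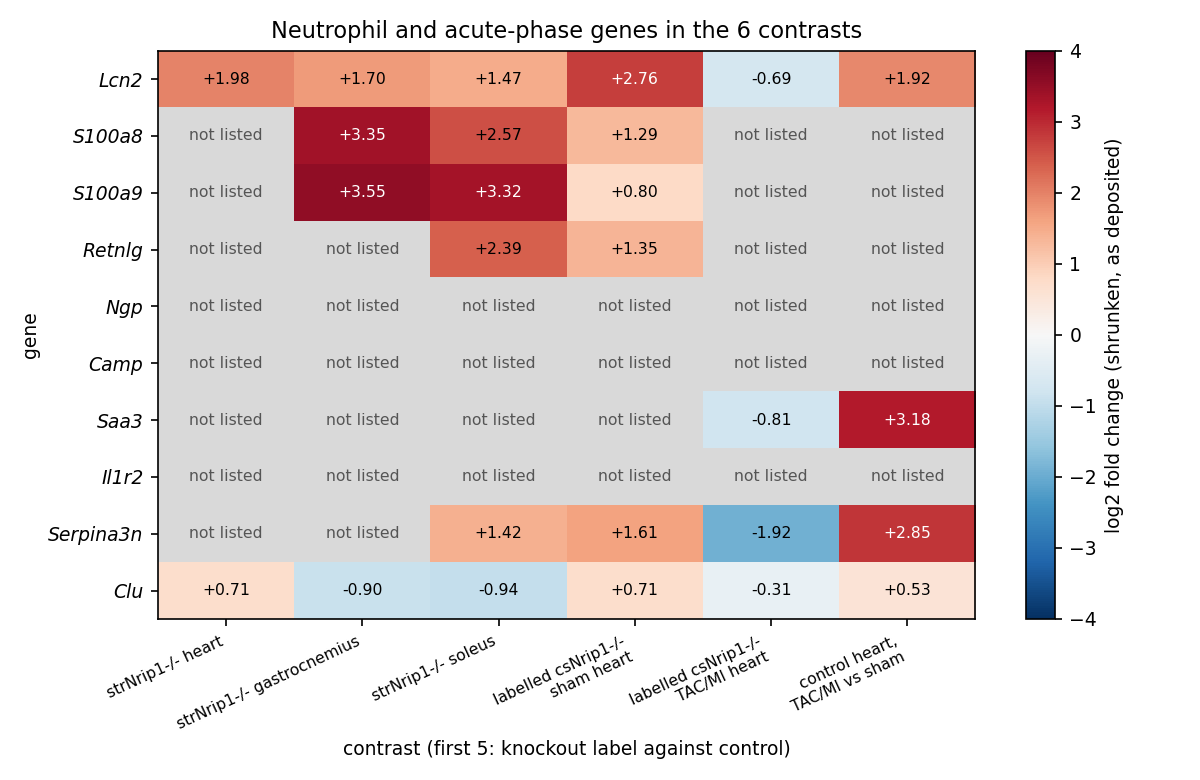
Log2 fold changes (colour and printed value) of the 10 genes (rows) in the 6 comparisons (columns), with grey for genes that were not listed. *Lcn2* and *Clu* have a value in every column, the alarmins *S100a8* and *S100a9* are listed in both muscles and in the sham hearts, and the column for TAC/MI hearts labelled csNrip1-/- holds only negative values.

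*S100a8* and *S100a9*, the subunits of the alarmin calprotectin, were upregulated together in both skeletal muscles. In gastrocnemius *S100a9* was higher by 3.55 on the log2 scale (11.7-fold) and *S100a8* by 3.35 (10.2-fold, FDR 1.86e-06). In soleus *S100a9* was higher by 3.32 (10-fold) and *S100a8* by 2.57 (5.92-fold, FDR 5.59e-04). These were among the larger changes in either muscle. By size *S100a9* ranked 4 and *S100a8* 5 of the 1045 genes higher in gastrocnemius, and they ranked 5 and 15 of 352 in soleus.

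In the heart the pair was listed once. After sham surgery, hearts labelled cs*Nrip1*-/- had *S100a8* higher by 1.29 (2.44-fold, FDR 2.92e-06) and *S100a9* by 0.80 (1.74-fold). Here *S100a8* had the larger value, whereas *S100a9* had the larger one in both muscles, and the difference between the subunits was not tested. Neither subunit was listed in str*Nrip1*-/- hearts, in TAC/MI hearts by genotype or for TAC/MI against sham. Among the other 14 genes of the S100 family that were looked up, none was listed in a muscle. Of all protein-coding genes, 8.73% were listed in gastrocnemius and 2.6% in soleus, so this is no result about the family. TAC/MI upregulated 4 of the 14 in control hearts, *S100a10* (0.57), *S100a11* (0.53), *S100a6* (0.46) and *S100a13* (0.36), against 8.14% of all genes listed higher. *S100a11* was lower after sham surgery in hearts labelled cs*Nrip1*-/- (-0.38, FDR 8.17e-04), where 9.23% of all genes were listed.

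*Tlr4*, the Toll-like receptor for the alarmin dimer, was not listed in any str*Nrip1*-/- tissue. It was higher after sham surgery in hearts labelled cs*Nrip1*-/- (0.75, FDR 1.17e-05), higher after TAC/MI in control hearts (0.98) and lower by genotype after TAC/MI (-0.34, FDR 0.0233). *Ager*, the other classical receptor of the dimer, was not listed. For each subunit 20 other symbols, its partner among them, were listed in the same 3 comparisons and in no other, with all values positive. The subunits were closest to each other, with a mean absolute difference of 0.48 in log2 fold change over 3 comparisons, and the next closest to *S100a8* were the glutathione transferase gene *Gsta3* (1.06) and the centriolar gene *Cntrl* (1.18). The 3 comparisons have different tissues and few mice, and a likeness over 3 values is a description.

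**Figure D2:**
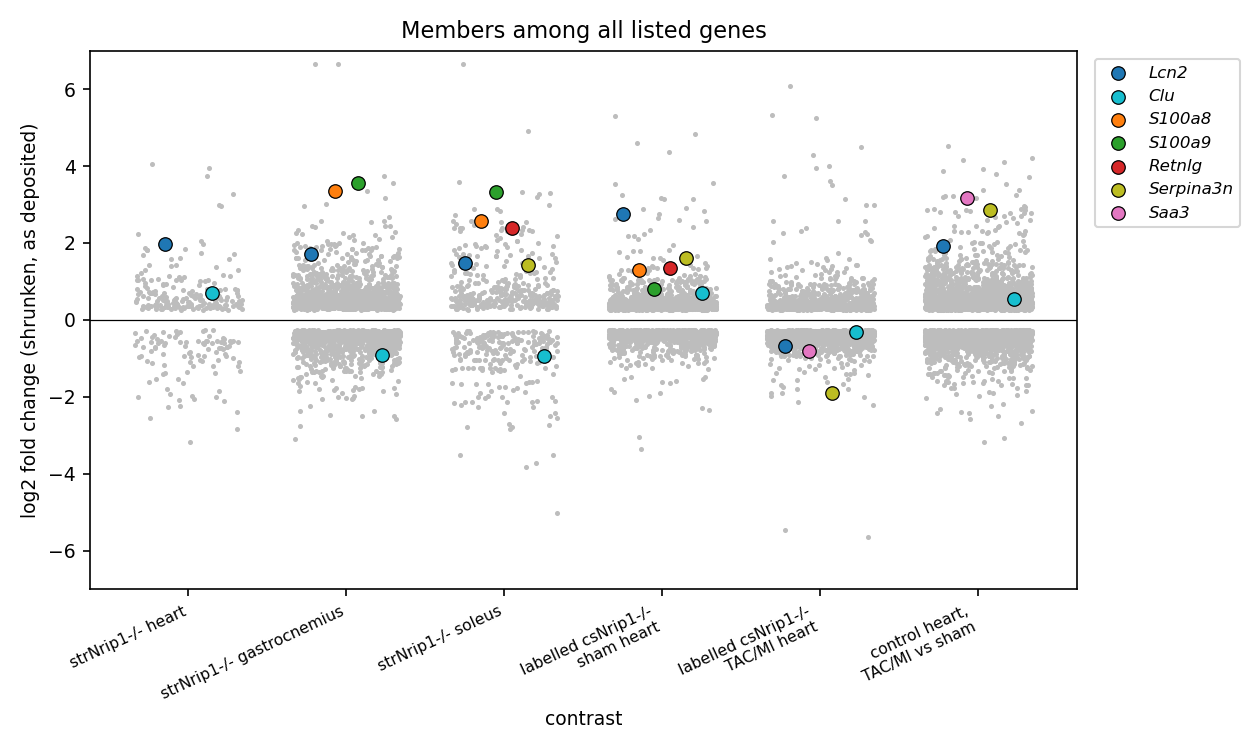
Log2 fold change of every listed gene (grey points, spread sideways at random) with the 7 listed genes of the group as coloured circles, for each of the 6 comparisons. 5 grey values beyond 7 in size are outside the axis, 3 in sham hearts and 2 in TAC/MI hearts by genotype; *S100a8* and *S100a9* lie near the top of the gastrocnemius column and *Serpina3n* near the bottom of that for TAC/MI hearts by genotype.

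*Lcn2* encodes lipocalin-2, which binds bacterial iron carriers and is made both in neutrophil granules and by stressed epithelial and muscle cells. It was listed in all 6 comparisons, as were 15 symbols in all. It was higher in str*Nrip1*-/- heart by 1.98 (3.94-fold), gastrocnemius by 1.70 (3.25-fold) and soleus by 1.47 (2.78-fold). Its highest value, 2.76 (6.76-fold), was in hearts labelled cs*Nrip1*-/- after sham surgery. In control hearts TAC/MI upregulated it by 1.92 (3.78-fold). The one negative value was in TAC/MI hearts by genotype, where it was lower by 0.69 on the log2 scale (1.61-fold).

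By size *Lcn2* ranked 9 of 190 genes higher in str*Nrip1*-/- heart, 61 of 1045 in gastrocnemius, 71 of 352 in soleus, 15 of 1104 in sham hearts and 68 of 1825 for TAC/MI, and 166 of 963 genes lower by genotype after TAC/MI. No other symbol had its pattern of 5 positive values and 1 negative value in that place. In str*Nrip1*-/- heart it was upregulated with neither alarmin listed, and after TAC/MI likewise. *Slc22a17*, which encodes a receptor for lipocalin-2, was not listed in any comparison. *Mmp9*, whose product forms a complex with lipocalin-2, was not listed either.

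Of the other neutrophil genes, only *Retnlg*, which encodes a resistin-like protein secreted by neutrophils, was listed. It was higher in soleus by 2.39 (5.24-fold, FDR 0.0297) and in sham hearts labelled cs*Nrip1*-/- by 1.35 (2.55-fold, FDR 5.74e-04). Its FDR in soleus is the largest of any entry of the 10 genes. *Retnlg* was listed in 2 of the 3 comparisons that list the alarmin pair, and it was not listed in gastrocnemius. *Ngp* and *Camp*, which encode the granule proteins neutrophilic granule protein and cathelicidin, and *Il1r2*, the interleukin-1 decoy receptor carried by mature neutrophils, were not listed in any comparison.

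Wider lists of neutrophil genes were looked up beside the group. Of 15 genes for granule and cytosolic proteins of neutrophils, 5 were listed in at least 1 comparison, against 27.5% of annotated protein-coding genes, and 3 of the 5 belong to the group. The 10 that were not listed include *Mpo*, *Elane*, *Prtn3*, *Ctsg*, *Ltf*, *Mmp8* and *Padi4*; a share of this size is near that of all genes and is no result about neutrophil genes. In gastrocnemius and in sham hearts the only listed members of this list were *Lcn2*, *S100a8* and *S100a9*. In soleus they were joined by the lysozyme gene *Lyz2* (0.48, FDR 1.86e-04), which macrophages also express. In str*Nrip1*-/- heart *Lyz2* (-0.33, FDR 0.0354) and *Cybb*, a subunit of the phagocyte oxidase (-0.87, FDR 0.0434), were lower while *Lcn2* was higher.

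Of 18 surface and maturity genes of neutrophils, 4 were listed in at least 1 comparison, again near the 27.5% of all genes. The 14 others include *Ly6g*, the antigen used to sort mouse neutrophils, and the chemokine receptor gene *Cxcr2*. *Csf3r*, the receptor of the granulocyte growth factor G-CSF, was higher in the muscles that had raised alarmins, by 1.29 in gastrocnemius (FDR 0.0477) and 1.60 in soleus (FDR 0.0414). *Clec4d*, a C-type lectin of myeloid cells, was higher after TAC/MI in control hearts (1.60, FDR 1.70e-04) and lower by genotype after TAC/MI (-0.40, FDR 0.0366), where *Hdc*, histidine decarboxylase, was also lower (-0.37, FDR 0.0484). Of 12 genes that attract neutrophils or hold them at the vessel wall, *Selp*, which encodes P-selectin, was higher in gastrocnemius (0.86, FDR 0.0229) and in sham hearts labelled cs*Nrip1*-/- (0.89, FDR 0.00347), and *Cxcl2* was higher after TAC/MI (0.60, FDR 0.0223). The other 10, among them *Cxcl1*, *Cxcl5*, *Icam1* and *Csf3*, were not listed. Gastrocnemius, sham hearts and TAC/MI against sham each listed 1 of the 12. Of all protein-coding genes, 8.73%, 9.23% and 15.1% were listed there, so this is no result about these genes.

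**Figure D3:**
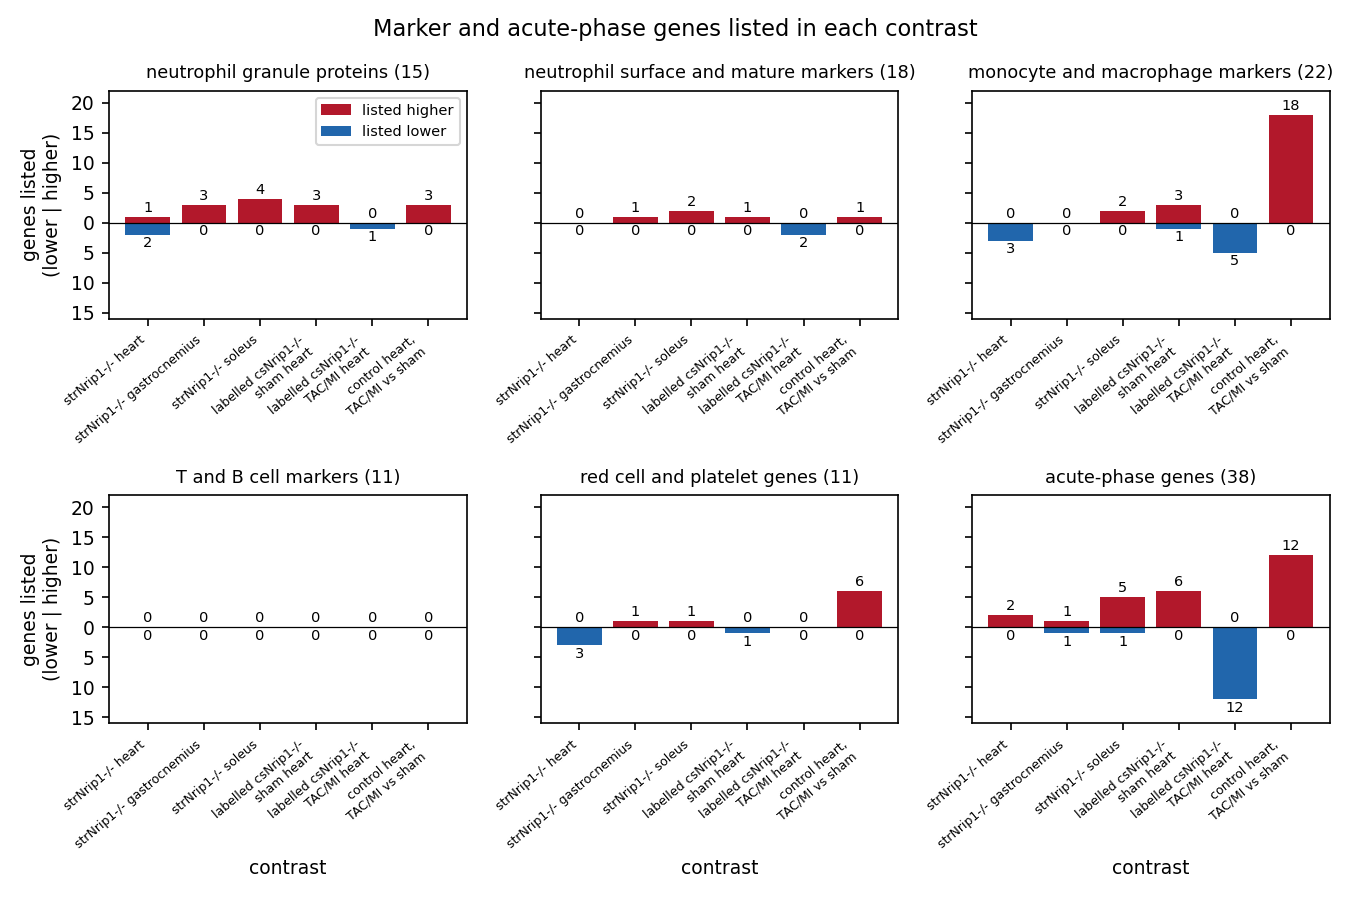
Number of genes listed higher (red, upward) and lower (blue, downward) in each comparison, for 6 lists of genes with the list's size in brackets. Monocyte and macrophage markers are mostly listed for TAC/MI against sham (18 of 22 higher), T and B cell markers in no comparison, and acute-phase genes are higher for TAC/MI (12) and lower by genotype after TAC/MI (12).

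Markers of other blood cells were looked up beside the alarmin pair. Of 22 monocyte and macrophage markers, none was listed in gastrocnemius, where the alarmin values were largest and 8.73% of all genes were listed. In soleus 2 were higher, *Ctss* (0.71) and *Lyz2* (0.48). In sham hearts labelled cs*Nrip1*-/-, *Ly6c2* (0.62), the galectin gene *Lgals3* (0.53) and *Ccr2* (0.38) were higher and *C1qc* was lower (-0.30). In str*Nrip1*-/- heart *Ptprc*, the pan-leukocyte antigen CD45, was lower (-0.60, FDR 0.0477), as were *Ctss* (-0.58) and *Lyz2* (-0.33). TAC/MI raised 18 of the 22 in control hearts, from 0.34 for *Mertk* to 1.59 for *Lgals3*, against 8.14% of all protein-coding genes listed higher, in the comparison in which neither alarmin was listed. In TAC/MI hearts by genotype 5 were lower (4.31% of all genes were listed lower), *Cd163* (-0.73), *Itgam* (-0.56), *Lgals3* (-0.39), *Ctss* (-0.34) and *Mertk* (-0.32).

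None of 11 T and B cell markers was listed in any comparison, against 27.5% of annotated protein-coding genes. Of 11 red cell and platelet genes, *Slc4a1*, the anion exchanger of red cells, was higher in gastrocnemius (2.67, FDR 0.00502) and soleus (2.56, FDR 0.0258), beside the alarmin pair. In these muscles 8.73% and 2.6% of all genes were listed. The globin genes *Hba-a2* (-0.56), *Hbb-bs* (-0.72) and *Hbb-bt* (-0.83) were lower in str*Nrip1*-/- heart, where 1.31% of all genes were listed. After TAC/MI 6 red cell genes were higher, by 0.43 to 0.76, against 8.14% of all genes listed higher. The platelet gene *Pf4* was lower in sham hearts labelled cs*Nrip1*-/- (-0.32, FDR 0.0259), where the alarmin pair was higher and 9.23% of all genes were listed. In bulk tissue, fewer cells of a type and less RNA per cell cannot be told apart. Whether the neutrophil genes came from cells in the tissue, from blood or from muscle cells was not tested, and levels were not given for any marker.

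*Serpina3n*, an acute-phase inhibitor of serine proteases, had its largest value after surgery. TAC/MI upregulated it in control hearts by 2.85 (7.2-fold, FDR 7.38e-39), rank 23 of the 1825 genes higher. By genotype it was higher after sham surgery by 1.61 (3.06-fold, FDR 2.13e-13) and lower after TAC/MI by 1.92 on the log2 scale (-1.92, 3.77-fold, FDR 7.40e-19). The value after TAC/MI ranked 8 of 963 genes lower. In soleus *Serpina3n* was higher by 1.42 (2.67-fold, FDR 0.0209), and it was not listed in gastrocnemius or in str*Nrip1*-/- heart. Genes typical of liver, which also makes *Serpina3n*, were higher in the same soleus comparison by 1.90 to 2.89, as described for the muscles further on. The pattern was shared by 3 other symbols, *Spock2* (mean absolute difference 1.14 over 4 comparisons), *Mpeg1* (1.26), a gene for a pore-forming protein of macrophages, and *Fmo2* (1.27).

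*Saa3*, the serum amyloid A gene expressed outside the liver, was listed only where surgery was involved. It was higher after TAC/MI in control hearts by 3.18 (9.03-fold, FDR 2.13e-05), rank 16 of 1825, and lower by genotype after TAC/MI (-0.81, 1.75-fold, FDR 0.00430). A genotype difference after sham surgery was not listed. The hepatic family members *Saa1*, *Saa2* and *Saa4* were not listed anywhere.

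Adding the deposited values along the line gives a rough picture of where TAC/MI hearts labelled cs*Nrip1*-/- stood against control sham hearts. The sums have no error and were taken from shrunken values that share control hearts. They were 2.37 for *Saa3*, 1.23 for *Lcn2*, 0.93 for *Serpina3n* and 0.23 for *Clu*, all above 0. Each sum was below the surgery value in control hearts by construction, because the genotype value added to it was negative. The genotype difference after TAC/MI was 0.672 of the size of the surgery change for *Serpina3n*, 0.573 for *Clu*, 0.359 for *Lcn2* and 0.254 for *Saa3*. Against the sham hearts of their own label, TAC/MI hearts labelled cs*Nrip1*-/- came out at -1.53 for *Lcn2*, -0.68 for *Serpina3n* and -0.48 for *Clu*. For *Lcn2* the sham value by genotype (2.76) was larger than the surgery value in control hearts (1.92).

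Other genes of the acute-phase response were looked up in the *Nkx2.5* line, 34 without the 4 that belong to the group. Most were not listed. After TAC/MI in control hearts 8 of 34 were higher and none lower, where 8.14% of all genes were listed higher, led by *Timp1* (2.44), an inhibitor of matrix proteases, *Spp1* (1.99), which encodes osteopontin, *Serpina3m* (1.87), *Lbp* (1.45), which carries bacterial lipopolysaccharide, and the complement gene *C4b* (1.42), with a median of 1.43 for the 8. The median of all genes listed higher there was 0.52. By genotype after TAC/MI 8 of 34 were lower and none higher, where 4.31% of all genes were listed lower, among them *Lbp* (-0.93), *C4b* (-0.78) and the ceruloplasmin gene *Cp* (-0.65), with a median of -0.54 against -0.43 for all genes listed lower. After sham surgery *Spp1* (0.84), *Lrg1* (0.47) and *C4b* (0.32) were higher, where 4.89% of all genes were listed higher, and *C4b* was the one gene of the 34 listed in all 3 comparisons. The surgery values and the genotype values after TAC/MI rest on the same 3 control hearts, in opposite senses, and the values after sham surgery share 4 control hearts with the surgery values, so the 3 columns are not independent.

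**Figure D4:**
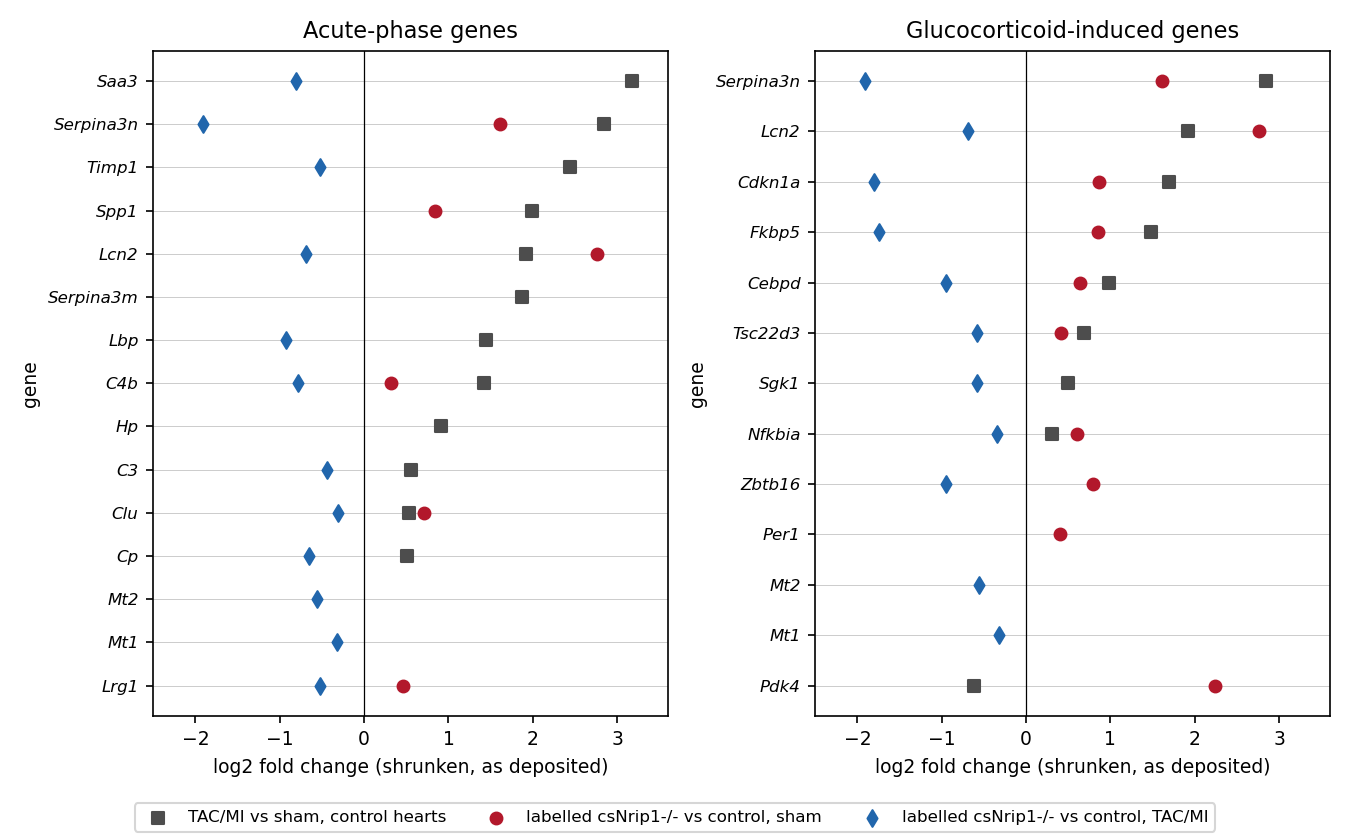
Log2 fold changes of the listed acute-phase genes (left) and of genes known to be induced by glucocorticoids (right) in hearts of the Nkx2.5 line. Squares are TAC/MI against sham in control hearts, circles and diamonds are hearts labelled csNrip1-/- against control after sham surgery and after TAC/MI; *Serpina3n*, *Lcn2* and *Clu* have positive squares and circles and negative diamonds, and a missing symbol means not listed.

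In the muscles, acute-phase genes beyond the group were listed in soleus alone, where the protease inhibitor gene *A2m* (2.06, FDR 0.0265), the hepcidin gene *Hamp* (1.92, FDR 0.00923) and complement *C3* (0.92, FDR 9.18e-06) were higher. Hepatocyte genes were also listed there. In a list of 29 hepatocyte genes added after the values were seen, 8 were higher in soleus and none lower, by 1.90 to 2.89 with a median of 2.17, where 1.58% of all genes were listed higher. They were *Ahsg* (2.89, FDR 9.69e-05), *Apoa2* (2.33), *Bhmt* (2.31), *Itih2* (2.21), *Ttr* (2.14), *Cps1* (2.06), the albumin gene *Alb* (1.92, FDR 0.0248) and *Apoa1* (1.90), with FDR values up to 0.0479. These values are larger than those of *Lcn2* (1.47) and *Serpina3n* (1.42) in soleus. In gastrocnemius *Ahsg* (2.15, FDR 0.0234) and *Ass1* (1.34) were higher, where 8.73% of all genes were listed. In str*Nrip1*-/- heart none of the 29 was listed, where 1.31% of all genes were. After TAC/MI in control hearts 5 were higher, by 0.57 to 1.54 (8.14% of all genes were listed higher). *Arg1* was higher after sham surgery (1.33), where 4.89% of all genes were listed higher. *Ahsg* (-0.86) and *Arg1* (-0.68) were lower by genotype after TAC/MI (4.31% of all genes were listed lower). *Alb* was listed in soleus alone. The hepatocyte list was added with these values known, so nothing is read from its counts against the shares of all genes. The part of liver-type RNA in the soleus values of *Serpina3n*, *Lcn2*, *A2m*, *Hamp* and *C3* was not tested. In gastrocnemius and str*Nrip1*-/- heart 8.73% and 1.31% of all genes were listed. None of the 34 acute-phase genes was listed in either, and *Lcn2* was higher in both. That the tissues differ in this respect was not tested.

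*Clu* encodes clusterin, a secreted chaperone found in injured tissue. It was listed in all 6 comparisons, and its direction differed between heart and skeletal muscle. It was higher in str*Nrip1*-/- heart by 0.71 (1.64-fold, FDR 0.00132) and lower in gastrocnemius (-0.90, 1.87-fold, FDR 1.05e-06) and soleus (-0.94, 1.92-fold, FDR 9.32e-07). The FDR of each was below 0.05 with opposite signs, and the difference itself was not tested. Of 43 symbols listed in all 3 tissues of the str*Nrip1*-/- line, 36 were higher in all, 4 were lower in all, and *Clu* and *Gnb3*, a G protein subunit gene, were the 2 that were higher in heart and lower in both muscles.

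In the *Nkx2.5* line *Clu* followed *Lcn2* in sign with smaller values. It was higher after sham surgery in hearts labelled cs*Nrip1*-/- (0.71, 1.63-fold, FDR 6.22e-14), higher after TAC/MI in control hearts (0.53, 1.45-fold, FDR 1.07e-08) and lower by genotype after TAC/MI (-0.31, 1.24-fold, FDR 9.38e-04). The last value is the smallest change among the 26 entries and close to the 1.2-fold limit of the list. No other symbol shared the pattern of *Clu* over the 6 comparisons. Of the clusterin receptor genes, *Lrp8* was higher after sham surgery by genotype (1.05, FDR 3.24e-04) and after TAC/MI in control hearts (2.87, FDR 3.48e-17) and lower by genotype after TAC/MI (-0.62, FDR 0.00343). *Vldlr* was higher after sham surgery (0.59) and *Lrp2*, whose product also binds lipocalin-2, was higher after TAC/MI (0.69).

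The pathway genes upstream of the acute-phase response were looked up as a list of 34 genes of interleukin-1 and interleukin-6 signalling. The cytokine genes *Il1a*, *Il1b*, *Il6*, *Tnf*, *Osm* and *Lif* were not listed in any comparison, nor was *Socs3*, a feedback target of STAT3. *Cebpb*, a C/EBP factor, was higher in the hearts of both lines without TAC/MI, in str*Nrip1*-/- heart (1.10, FDR 0.00603) and after sham surgery (0.91, FDR 1.57e-07). *Cebpd*, its relative, was higher in gastrocnemius (1.32, FDR 5.60e-04), after sham surgery (0.63) and after TAC/MI in control hearts (0.98), and lower by genotype after TAC/MI (-0.95, FDR 3.24e-16).

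*Nfkbia*, which encodes the NF-kB inhibitor and is itself induced by NF-kB and by glucocorticoids, was higher in gastrocnemius (0.46), soleus (0.39), sham hearts by genotype (0.60) and control hearts after TAC/MI (0.31), and lower by genotype after TAC/MI (-0.35). *Stat3* was higher in gastrocnemius (0.65, FDR 0.00467). In counts, 1 of the 34 was higher in str*Nrip1*-/- heart, 3 in gastrocnemius, 1 in soleus and 6 in sham hearts, and none of these 4 comparisons listed one lower. Of all protein-coding genes, in the same order, 1.31%, 8.73%, 2.6% and 9.23% were listed. The counts in str*Nrip1*-/- heart and both muscles are near those shares and are no result about this list. After TAC/MI 9 were higher (8.14% of all genes) and *Lifr* was lower (-0.29) in control hearts. By genotype after TAC/MI 6 were lower (4.31% of all genes).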

How the data were processed

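The authors assigned paired-end RNA-Seq reads to GRCm38 transcripts with Salmon (version 1.3.0 per the submitters' processing notes), summed them per gene and compared groups with DESeq2 (version 1.36.0), without a stated strand setting, so gene totals depend on how reads of related sequences were divided. The deposited log2 values are fold changes shrunken by the authors with ashr, and the deposited p-values are FDR values adjusted by the authors over their tested genes. Each list kept an FDR below 0.05 and at least 1.2-fold; these columns are the authors' own comparisons and were used as description, with no new test. Replicates are mice; sample groups came from the labels.

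With Python 3.11.15 and pandas 2.3.3, symbols were looked up in each list, the row with the smallest FDR standing for a repeated symbol, and ranked by size among genes of 1 direction. Between 98.8% and 99.7% of symbols matched GENCODE vM21. Relatives were found with blastn 2.17.0, requiring alignment over at least 50% of a transcript. The lookups were tested on simulated lists. All 10 genes are named, as are listed members of the looked-up gene lists and the closest patterns for genes listed in at least 3 comparisons; *Gnb3* and the hepatocyte list were added after the values were seen. The genes and lists were chosen with earlier results of these data known. Alternatives were stricter FDR and fold limits, and lists without unnamed gene models or repeated symbols.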

Additional observations from a re-analysis of the deposited data

How the results depend on the processing

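The directions of all 26 entries were fixed by the deposited lists, and no alternative reversed one. Leaving out unnamed gene models or repeated symbols removed no entry. At an FDR below 0.01, 3 entries were lost, *Lcn2*, *Retnlg* and *Serpina3n* in soleus, which left 3 of the 10 genes listed there. At 1.5-fold or more, *Clu* was lost after TAC/MI in both comparisons. At 2-fold or more, 9 entries were lost, leaving 1 gene in str*Nrip1*-/- heart and 1 by genotype after TAC/MI. Summed over the 6 comparisons, the entries left at 2-fold or more were 10 for neutrophil granule genes, 1 for macrophage markers, 2 for red cell and platelet genes, 17 for acute-phase genes, 2 for interleukin-1 and interleukin-6 signalling, 0 for recruitment genes, 5 for the S100 family, 2 for receptors and 16 for glucocorticoid-induced genes. At 1.5-fold or more they were 9 for macrophage markers, 7 for red cell and platelet genes, 13 for interleukin signalling and 6 for the S100 family. At an FDR below 0.01 they were 2 for mature neutrophil markers and 1 for recruitment genes. These losses follow from the stricter limits alone. Of the entries lost to fold limits, both at 1.5-fold and 6 of the 9 at 2-fold were those of *Clu*. Leaving out single mice and other normalizations could not be run. No paired analysis was possible because the files used here hold no values per sample.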

Other observations

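Genes known to be induced by glucocorticoids, *Lcn2* and *Serpina3n* among them, were looked up in the *Nkx2.5* line. Of 12 such genes outside the group, 8 were higher after sham surgery in hearts labelled cs*Nrip1*-/- (4.89% of all protein-coding genes were listed higher), led by *Pdk4* (2.24), a kinase that blocks glucose oxidation, *Cdkn1a* (0.87), *Fkbp5* (0.86) and *Zbtb16* (0.80). After TAC/MI 9 of the 12 were lower by genotype (4.31% of all genes were listed lower), including *Cdkn1a* (-1.80, FDR 4.72e-22), *Fkbp5* (-1.74, FDR 4.33e-20), *Zbtb16* (-0.95), *Sgk1* (-0.58) and *Tsc22d3* (-0.58). The lists overlap. Among the 9, *Mt1* and *Mt2* are also counted with the acute-phase genes, and *Cebpd* and *Nfkbia* with interleukin signalling. In control hearts 6 of the 12 were higher after TAC/MI (8.14% of all genes), among them *Cdkn1a* (1.69), *Fkbp5* (1.48) and *Tsc22d3* (0.69), and *Pdk4* was lower (-0.61), against the direction of *Lcn2* and *Serpina3n*. *Klf9* was not listed in any comparison. In gastrocnemius *Cdkn1a* (1.70) and *Cebpd* (1.32) were higher and *Sgk1* was lower (-0.68). In str*Nrip1*-/- heart none of the 12 was listed beside *Lcn2*, where 1.31% of all genes were listed, so this is no result about the 12. The comparisons of this line share control hearts. By the study's methods all tissues were taken late in the morning from briefly fasted mice, and hormone levels were not analysed here.

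Of the 15 symbols listed in all 6 comparisons, *Lcn2*, *Clu*, *Ptgds* and *Hk1* were the 4 that TAC/MI and the sham comparison by genotype both showed higher. They were picked after their values were seen. *Ptgds*, a prostaglandin D2 synthase that like lipocalin-2 is a lipocalin, was higher in all 6, by 3.95 in str*Nrip1*-/- heart, 2.56 in gastrocnemius, 3.58 in soleus, 2.83 after sham surgery, 2.31 by genotype after TAC/MI and 0.40 for TAC/MI in control hearts. *Hk1*, a hexokinase gene, was also higher in all 6, by 0.28 for TAC/MI in control hearts and 1.83 in str*Nrip1*-/- heart, for example. Unlike *Lcn2* and *Clu*, both had a positive value by genotype after TAC/MI.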
